A study of Mus musculus with 12 samples.

Results

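The insulin signalling genes described here are 10 genes taken by symbol: the receptor Insr, the adaptors Irs1 and Irs2, the phosphoinositide 3-kinase subunits Pik3r1 and Pik3ca, the kinases Akt1 and Akt2, the transcription factors Foxo1 and Foxo3, and the GTPase-activating protein Tbc1d4. All 10 were found among the 23042 genes of each deposited table, each as an entry of its own, and all 10 passed the filter of a mean of at least 1 FPKM in both tissues. FPKM scales the fragments of a gene to transcript length and to the mapped fragments of the library. RNA of heart ventricles and of epididymal white adipose tissue (EWAT) was sequenced from WT and MED13cTg mice, with 3 libraries per genotype and tissue and 12 in all. MED13cTg mice carry a cardiac transgene of MED13, a subunit of the Mediator kinase module. The promoter of the transgene is not given in the sources used here. All groups shared the C57BL/6 strain and were male littermates on normal chow, aged 6 weeks by the labels, sampled in the late afternoon while feeding freely. The study gives the number of animals in its legends, and the libraries are taken here as separate mice, which the labels do not state.

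Insulin binds a receptor tyrosine kinase at the cell surface, which phosphorylates the IRS adaptors. These recruit phosphoinositide 3-kinase, whose lipid product brings AKT to the membrane to be activated. AKT then phosphorylates TBC1D4 (AS160), which releases GLUT4 vesicles to the surface, and the FoxO factors, which leave the nucleus. In heart and fat the pathway governs glucose uptake, and in fat it also restrains lipolysis. Much of its control is by phosphorylation, which RNA levels do not record.

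The transgene was checked first. Med13 measured 13.1, 10.6 and 11.5 FPKM in WT ventricles against 263.1, 180.6 and 204.5 FPKM in MED13cTg ventricles, a log2 fold change of 4.08 with a limma adjusted p of 0.00028. In EWAT it measured 9.43 to 10.9 FPKM in WT against 7.84 to 11.03 FPKM in MED13cTg. Ventricular cardiomyocyte markers summed to 63348 FPKM or more in every ventricle library, and to 56.2 FPKM or less in every EWAT library. Absolute depth is unknown from FPKM, while relative to WT replicate 1 it was 0.927 to 1.02 in the other ventricle libraries and 0.712 to 0.933 in the other EWAT libraries.

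Libraries stood apart in both tissues. In ventricles, WT replicates 2 and 3 and MED13cTg replicate 3 resembled each other, as did WT replicate 1 and MED13cTg replicates 1 and 2: rank correlations across genes were 0.959 to 0.969 within these sets of 3 and 0.944 to 0.957 between them. MED13cTg replicate 2 also held a summed level of 670.3 FPKM of 4 atrial cardiomyocyte markers, against 78.9 to 178.9 FPKM in WT. Its ventricular cardiomyocyte sum of 92084 FPKM (63529 to 70703 in WT) and endothelial sum of 378.1 FPKM (250.7 to 305.0 in WT) were above WT too. So were its mature adipocyte, macrophage, lymphocyte and testis germ cell sums, while its epididymis sum lay within the WT range. In EWAT, 7 mature adipocyte markers summed to 4658 to 7868 FPKM in WT, 485.4 FPKM in MED13cTg replicate 1, 29223 FPKM in replicate 2 and 4917 FPKM in replicate 3. The same libraries held RNA of neighbouring tissue, with 11 epididymis markers at 50391 to 63818 FPKM in WT against 7935, 161.1 and 49151 FPKM in MED13cTg. For 8 testis germ cell markers the sums were 244.1 to 310.1 FPKM in WT against 16880, 7.46 and 377.3 FPKM in MED13cTg. The adipocyte sum was below the epididymis sum in 5 of 6 EWAT libraries, all but MED13cTg replicate 2. In MED13cTg replicate 1 the testis germ cell sum was the highest of these 3 sums, so its markers go against the label of adipose tissue, and its values are those of the library labelled EWAT. In bulk RNA, fewer cells of a type and less RNA per cell cannot be told apart.

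Among WT ventricles, Akt1 had the highest level of the 10 genes at 109.8 ± 0.0696 FPKM (SD, n = 3). It was followed by Pik3r1 at 82.7 ± 12.3 FPKM and Akt2 at 78.4 ± 10.1 FPKM, whose ranges overlapped. Tbc1d4 came next at 43.0 ± 7.47 FPKM, below Akt2 and above Insr without overlap. Insr at 28.9 ± 3.83 FPKM, Foxo3 at 24.2 ± 15.5 FPKM and Pik3ca at 14.7 ± 2.48 FPKM were neighbours with overlapping ranges, because Foxo3 ran from 6.25 to 33.4 FPKM. Foxo1 at 7.74 ± 0.208 FPKM, Irs1 at 7.01 ± 1.28 FPKM and Irs2 at 4.09 ± 2.15 FPKM were the lowest and overlapped in order. The kinase at the middle of the pathway was thus the most abundant transcript and the adaptors just below the receptor the least.

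The order in WT EWAT differed. In these libraries the epididymis marker sum was 50391 to 63818 FPKM, against 4658 to 7868 FPKM for mature adipocyte markers. The levels are thus those of a mixed sample, and the part of each tissue in them was not tested. Akt2, the isoform known for insulin-stimulated glucose uptake, led at 91.1 ± 8.37 FPKM, above Akt1 at 53.9 ± 2.74 FPKM and Pik3r1 at 35.5 ± 1.54 FPKM, with no overlap between these 3. Insr at 12.1 ± 0.239 FPKM, Foxo1 at 11.7 ± 1.60 FPKM, Tbc1d4 at 11.4 ± 1.99 FPKM and Pik3ca at 9.34 ± 0.944 FPKM formed a run in which each overlapped the next. Foxo3 at 2.93 ± 0.989 FPKM, Irs1 at 2.48 ± 0.278 FPKM and Irs2 at 2.29 ± 0.499 FPKM closed the order with overlapping ranges, where Foxo3 had been sixth in ventricles. The tables of the tissues were made separately, so levels were set side by side with no test. The WT mean in ventricles was 8.24 times that in EWAT for Foxo3, 3.77 times for Tbc1d4 and 2.82 times for Irs1. It was 1.58 to 2.39 times for Insr, Pik3r1, Akt1, Irs2 and Pik3ca. Only Akt2, at 0.860, and Foxo1, at 0.66, had the lower WT mean in ventricles.

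Genotypes were compared in each tissue with limma on log2(FPKM + 1), a scale that understates the change of low genes. In ventricles 0 of 10 genes passed an adjusted p of 0.05, against 0.0556% of the 12589 genes tested, and 1 of 10, Pik3r1, had an unadjusted p below 0.05, against 4.73% of all. Log2 fold changes were negative in 8 of 10, beside 6707 of the 12589 genes tested, with a median of -0.22 beside -0.01 for all genes tested. For 1 of 10, Foxo1, every MED13cTg library lay below every WT library, an arrangement found in 5.85% of all genes tested. None of the 10 showed the opposite arrangement, found in 3.46%. In the order of the pathway, the values were as follows.

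**Figure D1:**
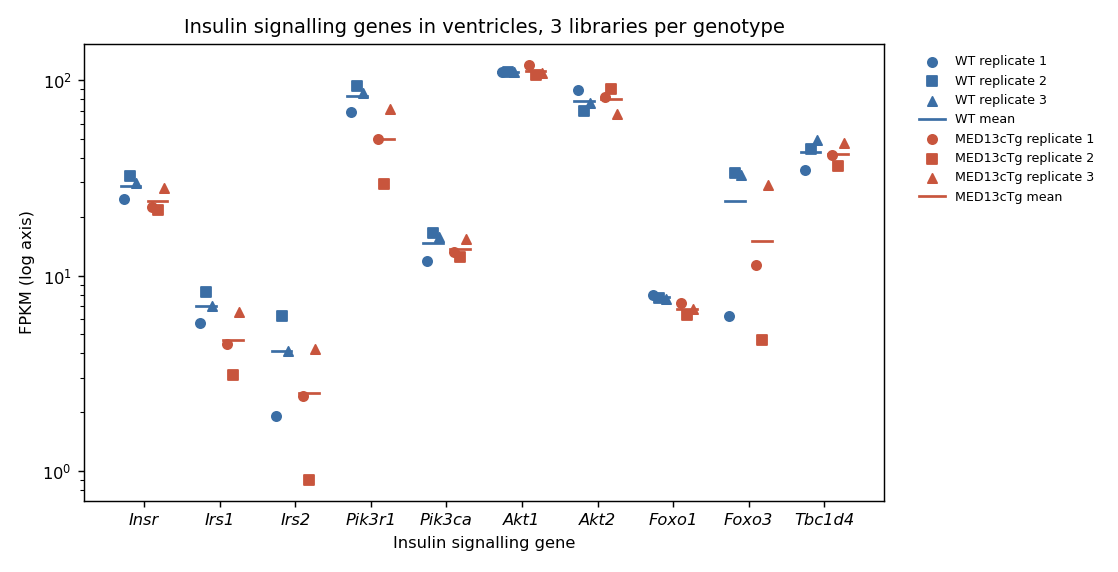
FPKM of each insulin signalling gene (log axis) in ventricles, with 1 point per library, blue for WT and red for MED13cTg, symbols for the replicate number and bars for the means of 3 libraries. Foxo1 is the only gene whose genotypes do not overlap, and in Foxo3 WT replicate 1 and MED13cTg replicates 1 and 2 lie at 4.69 to 11.3 FPKM, below the other 3 libraries at 29.0 to 33.4 FPKM.

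Insr (mm9 chr8:3150921-3279617) encodes the insulin receptor. It measured 24.7, 32.2 and 29.9 FPKM in WT ventricles against 22.3, 21.8 and 27.9 FPKM in MED13cTg ventricles. The MED13cTg libraries 1 and 2 were the lowest, while replicate 3 lay within the WT range, and the log2 fold change was -0.26 (SE 0.148, limma adjusted p = 0.966).

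Irs1 (mm9 chr1:82229679-82288014) and Irs2 (mm9 chr8:10986963-11054541) encode the main adaptors of the receptor, and Irs2 is a well-known target of FoxO factors. Their promoters are shown because they alone held both an E-box and an insulin response sequence. Their pattern over the libraries was shared by most of the other genes, and those with a matched window held neither motif. Promoter windows from RefSeq (GRCm38.p6, from 250 bases before to 50 after the gene start) were matched for 9 of the 10 genes, all but Insr, in 14 windows. The windows were searched on both strands for 9 motifs. The E-box, CACGTG, was held by Irs1 and Irs2 alone among the 9 genes, in 2 of the 14 windows, and by 7.15% of 32851 promoters. The insulin response sequence to which FoxO factors bind, CAAAACA, was likewise held by Irs1 and Irs2 alone, in 2 of the 14 windows, and by 6.28% of promoters. Both motifs in 1 window occurred in 0.408% of promoters. No other pair of the 9 motifs was counted, and these promoters are shown for holding this pair, so the share is a description without a test. The windows, chr1:82291390-82291689 and chr8:11008880-11009179, both lie on the minus strand and are written 5′ to 3′, with these motifs in capitals:
Irs1: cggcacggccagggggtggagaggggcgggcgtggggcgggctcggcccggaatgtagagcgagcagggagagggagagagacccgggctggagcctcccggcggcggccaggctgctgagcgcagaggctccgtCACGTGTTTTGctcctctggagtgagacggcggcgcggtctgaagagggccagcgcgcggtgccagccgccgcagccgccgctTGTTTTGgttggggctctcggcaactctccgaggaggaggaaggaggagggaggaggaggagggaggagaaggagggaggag
Irs2: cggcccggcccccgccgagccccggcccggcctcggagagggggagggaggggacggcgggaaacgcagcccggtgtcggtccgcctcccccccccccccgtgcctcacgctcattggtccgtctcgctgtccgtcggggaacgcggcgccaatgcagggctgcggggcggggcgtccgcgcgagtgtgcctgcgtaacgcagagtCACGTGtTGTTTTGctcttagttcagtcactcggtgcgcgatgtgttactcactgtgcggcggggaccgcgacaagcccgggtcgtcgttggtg
Counted from 1 at the 5′ end of the window, the E-box of Irs1 started at base 136 and its insulin response sequences, read as TGTTTTG, at bases 140 and 219. The first of these shared 2 bases with the E-box. In Irs2 the E-box started at base 207 and TGTTTTG at base 214, with 1 base between them. The FoxO consensus GTAAACA was held by Akt1 alone among the 9 genes, in 1 of the 14 windows (3.65% of promoters). The letters GGGCGG were held by 9 of the 14 windows, 1 for each of the 9 genes (35.7% of promoters). The letters CCAAT were held by 4 of the 14 windows, of Irs2, Akt2, Foxo1 and Pik3r1 (37.4%), and TATAAA by 1, of Pik3r1 (13.6%). The remaining motifs were in none of the 14 windows. They were the cyclic AMP element TGACGTCA (1.79%), a glucocorticoid element spelled ACANNNTGT (6.85%) and a sterol element spelled TCACNCCAC (1.24%). A match of letters is a description of the window, not evidence of binding.

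Irs1 measured 5.72, 8.29 and 7.02 FPKM in WT ventricles against 4.44, 3.09 and 6.53 FPKM in MED13cTg ventricles. MED13cTg replicate 2 was the lowest and replicate 3 lay within the WT range. The log2 fold change was -0.53 (SE 0.238, limma adjusted p = 0.966). Without MED13cTg replicate 2 it was -0.31, and without MED13cTg replicate 3 it was -0.75. Irs2 measured 1.92, 6.22 and 4.13 FPKM in WT against 2.41, 0.899 and 4.22 FPKM in MED13cTg. Here WT replicate 1 was itself low, below MED13cTg replicates 1 and 3, and the genotypes overlapped. The log2 fold change of Irs2 was -0.56 (SE 0.447, limma adjusted p = 0.966). Without MED13cTg replicate 2 it was -0.18, and without MED13cTg replicate 3 it was -0.91.

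Pik3r1 (mm9 chr13:102450717-102538172) encodes the p85α regulatory subunit that docks on phosphorylated IRS proteins. It measured 69.0, 93.1 and 85.9 FPKM in WT ventricles against 50.2, 29.4 and 71.3 FPKM in MED13cTg ventricles. MED13cTg replicate 3 exceeded WT replicate 1 by a small margin, and the other MED13cTg libraries lay below all WT libraries. Its log2 fold change of -0.78 (SE 0.310) was the largest in size of the 10 genes in ventricles, with a limma adjusted p of 0.966. Without MED13cTg replicate 2, the library with high atrial and other marker sums, it was -0.45, and without MED13cTg replicate 3 it was -1.08. The part of the cells behind those sums in the difference was not tested. Pik3ca (mm9 chr3:32335072-32369275) encodes the p110α catalytic subunit that p85α holds. Its levels were 11.9, 16.5 and 15.8 FPKM in WT against 13.3, 12.4 and 15.4 FPKM in MED13cTg, so every MED13cTg library fell inside the WT range. The log2 fold change of Pik3ca was -0.09 (SE 0.151, limma adjusted p = 0.969).

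Akt1 (mm9 chr12:113892031-113913020), the kinase isoform tied to growth, was the steadiest of the 10 genes among WT ventricles. Its levels were 109.8, 109.8 and 109.7 FPKM in WT against 120.0, 106.9 and 109.5 FPKM in MED13cTg. The MED13cTg libraries lay on both sides of the narrow WT range, and the log2 fold change was 0.03 (SE 0.106, limma adjusted p = 0.979). Akt2 (mm9 chr7:28376578-28424472) measured 89.4, 69.6 and 76.1 FPKM in WT against 81.8, 90.3 and 67.1 FPKM in MED13cTg. The genotypes overlapped almost entirely, with a log2 fold change of 0.02 (SE 0.157, limma adjusted p = 0.991).

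Foxo1 (mm9 chr3:52072258-52154031) and Foxo3 (mm9 chr10:41905591-41996548) encode transcription factors that AKT holds out of the nucleus and that induce atrophy, autophagy and antioxidant genes. Foxo1 measured 7.97, 7.69 and 7.56 FPKM in WT ventricles against 7.22, 6.27 and 6.72 FPKM in MED13cTg ventricles. All 3 MED13cTg libraries lay below all 3 WT libraries, yet the log2 fold change of -0.18 (SE 0.0948) had a limma adjusted p of 0.966. Foxo3 measured 6.25, 33.4 and 32.8 FPKM in WT against 11.3, 4.69 and 29.0 FPKM in MED13cTg. Its libraries formed a high and a low set, each with both genotypes, and the log2 fold change was -0.67 with an SE of 0.786 (limma adjusted p = 0.966). Without WT replicate 1 it was -1.41 and without MED13cTg replicate 2 it was -0.08. Tbc1d4 (mm9 chr14:101841576-102008408), the AKT substrate that gates GLUT4 vesicles, measured 34.8, 44.7 and 49.5 FPKM in WT against 41.4, 36.6 and 47.9 FPKM in MED13cTg. Every MED13cTg library was inside the WT range, with a log2 fold change of -0.03 (SE 0.167, limma adjusted p = 0.988).

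The split among ventricle libraries ran through most of these genes. WT replicates 2 and 3 and MED13cTg replicate 3 were the 3 highest libraries for 7 of 10 genes, namely Insr, Irs1, Irs2, Pik3r1, Pik3ca, Foxo3 and Tbc1d4. The same libraries were the 3 highest for 17.1% of all genes tested. They were the 3 lowest for 1 of 10, Akt2, against 23.1% of all genes. Akt1 and Foxo1 followed neither arrangement. These sets were found from the same expression values, so the counts are a description without a test. In the FoxO family and target list, the same 3 libraries were the highest for 12 of 17 genes. Among them were Pdk4, the kinase that shuts off pyruvate dehydrogenase, at 638.0 to 874.7 FPKM against 312.2 to 419.4 FPKM in the other 3 libraries, and Bnip3, a mitophagy receptor, at 146.8 to 227.1 against 65.3 to 92.5 FPKM. Sesn3 lay at 3.52 to 4.39 against 1.39 to 2.30 FPKM and the ubiquitin ligase gene Fbxo32 at 49.6 to 66.8 against 28.4 to 39.3 FPKM.

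Genotypes were therefore also compared inside each set. For Pik3r1 the log2 difference of MED13cTg minus WT was -0.83 among WT replicate 1 and MED13cTg replicates 1 and 2, and -0.32 among WT replicates 2 and 3 and MED13cTg replicate 3. For Irs1 these were -0.51 and -0.20, for Insr -0.16 and -0.15, for Irs2 -0.20 and -0.22, and for Foxo1 -0.21 and -0.16. These 5 genes had a negative difference in both sets, for which no share over all genes was computed. For Irs2 in the first set, MED13cTg replicate 1 at 2.41 FPKM lay above WT replicate 1 at 1.92 FPKM. The negative value there came from MED13cTg replicate 2 at 0.899 FPKM. Akt2 was at -0.06 and -0.12, although its log2 fold change over all 6 libraries was 0.02. Foxo3 was 0.21 and -0.18 and Pik3ca 0.10 and -0.06, so their signs differed between the sets, and Tbc1d4 was positive in both at 0.15 and 0.02. Akt1 was 0.044 and -0.0026. Each set holds 1 library of one genotype and a pair of the other, so these differences have no test of their own. With the set as a covariate in limma, Pik3r1 had a log2 fold change of -0.58, Foxo1 of -0.19 and Foxo3 of 0.01, and 0 of 10 genes were called. The sets came from the same expression values, so this fit is a description too and not a separate test.

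MED13cTg replicate 2, the ventricle library with the atrial markers, lay below all 3 WT libraries for 7 of 10 genes, against 24.6% of all genes tested, and above them for 1, Akt2, against 28.2%. Its values over the WT mean ran from 0.194 for Foxo3 to 1.15 for Akt2. Most other marker sums of this library were above WT as well, and the part of the atrial or other cells in this was not tested.

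In EWAT 0 of 10 genes passed an adjusted p of 0.05, against 0.0134% of the 14967 genes tested, and 0 of 10 had an unadjusted limma p below 0.05, against 1.25% of all. With the replicate number as a block, 0 of 10 genes and 0 of all genes were called, where the fit without the block called 2 genes in all. Log2 fold changes were positive in 5 and negative in 5, with a median of 0.03 beside 0.01 for all genes tested. The ratio of MED13cTg to WT mean FPKM was above 1 for 9 of 10 genes, all but Akt1, so for Insr, Pik3r1, Foxo1 and Tbc1d4 the direction turned between the mean of FPKM and the mean on the log scale. No gene had MED13cTg libraries all above WT, found in 4.88% of all genes, or all below, found in 7.8%. Except for Foxo3, the WT libraries lay close together, and the MED13cTg libraries spread to either side of them. Foxo3 ran from 1.85 to 3.79 FPKM in WT and from 3.32 to 4.92 FPKM in MED13cTg.

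**Figure D2:**
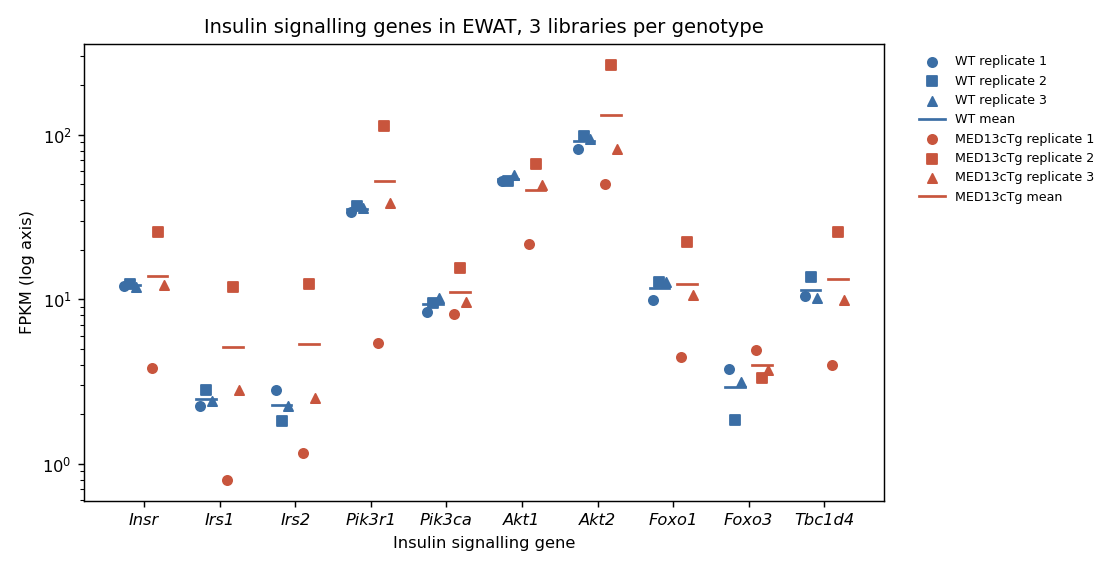
FPKM of each insulin signalling gene (log axis) in EWAT, with 1 point per library, blue for WT and red for MED13cTg, symbols for the replicate number and bars for the means of 3 libraries. For 9 of 10 genes MED13cTg replicate 1 is the lowest library, and for the same genes replicate 2 is the highest, with Pik3r1 running from 5.43 to 112.9 FPKM, while Foxo3 has replicate 1 highest.

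MED13cTg replicate 1 lay below all 3 WT libraries for 9 of 10 genes, against 48.2% of all genes tested. For the remaining gene, Foxo3, it lay above them, against 44.1%. MED13cTg replicate 2 lay above all 3 WT libraries for 9 of 10, against 38.2%, and below them for 0 of 10, against 45.7%. Foxo3 was again the exception, inside the WT range. MED13cTg replicate 3 lay inside the WT range for 5 genes, below it for 3, against 23.3%, and above it for 2, against 20.9%. Over the WT mean, the 10 genes had a median of 0.389 in replicate 1, 2.18 in replicate 2 and 1.02 in replicate 3, where they ran from 0.865 to 1.27.

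Insr measured 12.1, 12.4 and 11.9 FPKM in WT EWAT against 3.80, 25.4 and 12.2 FPKM in MED13cTg EWAT. The first MED13cTg library was far below the WT range, the second far above and the third inside it. Its log2 fold change was -0.14 (SE 0.622, limma adjusted p = 0.938).

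Irs1 measured 2.24, 2.79 and 2.42 FPKM in WT against 0.796, 11.8 and 2.82 FPKM in MED13cTg. Irs2 measured 2.81, 1.82 and 2.24 FPKM in WT against 1.16, 12.4 and 2.51 FPKM in MED13cTg. These adaptors had the highest values over the WT mean of the 10 genes in MED13cTg replicate 2, at 4.77 for Irs1 and 5.42 for Irs2, beside 4.76 for the mature adipocyte marker sum. Their log2 fold changes were 0.36 (SE 0.731, limma adjusted p = 0.860) for Irs1 and 0.52 (SE 0.706, limma adjusted p = 0.782) for Irs2. Without MED13cTg replicate 2 they were -0.41 and -0.25, and without replicate 1 they were 1.01 and 1.07.

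Pik3r1 measured 33.8, 36.8 and 35.9 FPKM in WT against 5.43, 112.9 and 38.6 FPKM in MED13cTg, the widest spread of the 10 genes on a log scale. Its value over the WT mean was 0.153 in MED13cTg replicate 1, the lowest of the 10 genes there, and its log2 fold change was -0.25 (SE 1.02, limma adjusted p = 0.935). Pik3ca, the catalytic partner, spread far less, at 8.32, 9.50 and 10.2 FPKM in WT against 8.12, 15.5 and 9.66 FPKM in MED13cTg. Its log2 fold change was 0.18 (SE 0.287, limma adjusted p = 0.810).

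Akt1 measured 52.5, 52.1 and 57.0 FPKM in WT against 21.6, 66.2 and 49.6 FPKM in MED13cTg. In replicate 2 it was 1.23 times the WT mean, the smallest such value among the 9 genes that lay above all WT libraries there, and its log2 fold change was -0.37 (SE 0.432, limma adjusted p = 0.752). Akt2 measured 81.7, 97.8 and 93.9 FPKM in WT against 50.1, 265.7 and 81.4 FPKM in MED13cTg, so the isoforms lay further apart in replicate 2 than in any other library. Its log2 fold change was 0.18 (SE 0.623, limma adjusted p = 0.921).

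Foxo1 measured 9.88, 12.6 and 12.7 FPKM in WT against 4.42, 22.2 and 10.6 FPKM in MED13cTg, with a log2 fold change of -0.16 (SE 0.543, limma adjusted p = 0.920). Foxo3 measured 3.79, 1.85 and 3.16 FPKM in WT against 4.92, 3.32 and 3.71 FPKM in MED13cTg. It was the one gene of the 10 that did not separate MED13cTg replicates 1 and 2 in the common direction, and its SE of 0.315 was the second smallest in EWAT after Pik3ca. Its log2 fold change was 0.36 (limma adjusted p = 0.738), and it was 0.15 without WT replicate 2 and 0.23 without MED13cTg replicate 1. Tbc1d4 measured 10.4, 13.7 and 10.1 FPKM in WT against 4.002, 25.7 and 9.85 FPKM in MED13cTg. The third MED13cTg library was just under the WT range and the other 2 were far outside it on either side, with a log2 fold change of -0.12 (SE 0.619, limma adjusted p = 0.947).

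**Figure D3:**
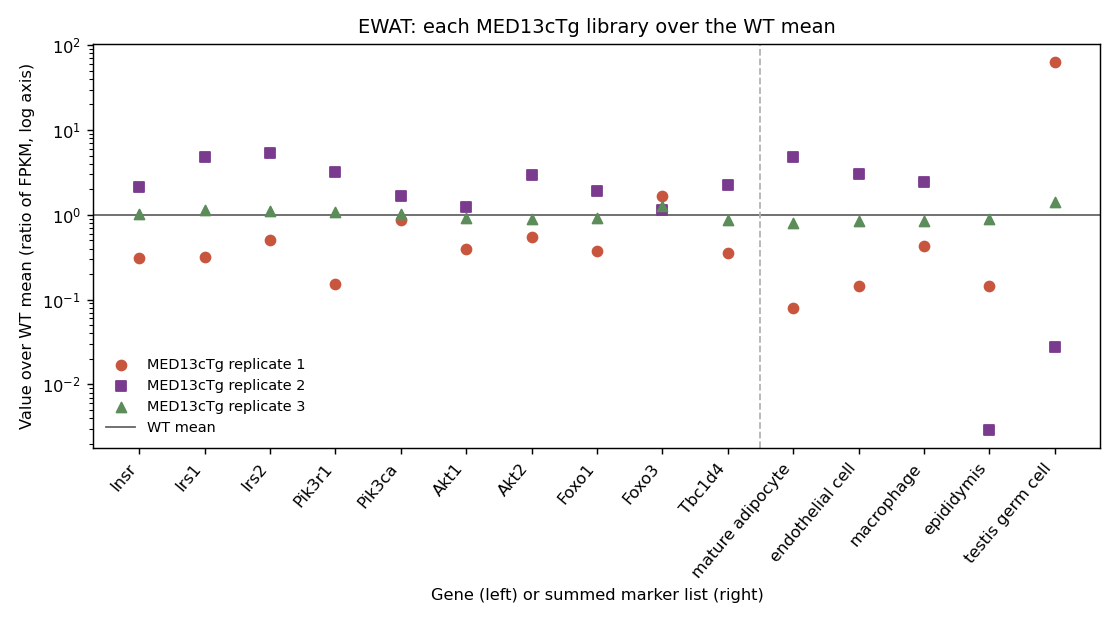
FPKM of each insulin signalling gene (left) and summed FPKM of 5 marker lists (right) in each MED13cTg EWAT library over the mean of 3 WT libraries, on a log axis where the line at 1 is the WT mean. Mature adipocyte, endothelial and macrophage sums are low in replicate 1 and high in replicate 2, as 9 of the 10 genes are, the epididymis sum is low in both, and the testis germ cell sum is 62.8 times the WT mean in replicate 1.

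Mature adipocyte, endothelial and macrophage sums moved with these values, and the epididymis and testis germ cell sums did not. Over the WT mean, MED13cTg replicates 1, 2 and 3 had 0.0791, 4.76 and 0.802 of the mature adipocyte sum, 0.144, 3.00 and 0.852 of the endothelial sum over 5 genes, and 0.431, 2.47 and 0.841 of the macrophage sum over 6 genes. The epididymis sum was 0.143, 0.00291 and 0.887 of the WT mean and the testis germ cell sum 62.8, 0.0277 and 1.40. None of these markers passed the adjusted threshold in EWAT, and each list had 0 genes listed at 0 in any EWAT library. The part of these cells in the levels of the insulin signalling genes was not tested. Without MED13cTg replicate 1 the median log2 fold change of the 10 genes was 0.49, without replicate 2 it was -0.59, and without both it was 0.03, with 0 of 10 called in each case. The last of these rests on MED13cTg replicate 3 alone, which is assumed to vary like the WT libraries.

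Ratios of FPKM within a library do not depend on scaling between libraries. They were compared by exact two-sided permutation tests, for which 3 against 3 libraries cannot give a p below 0.1. Of 10 ratios over both tissues, 1 did not overlap between genotypes. This was Pik3r1 over Pik3ca in ventricles, the ratio of regulatory to catalytic subunit transcripts, at 5.81, 5.65 and 5.45 in WT and 3.79, 2.37 and 4.62 in MED13cTg. All MED13cTg ratios lay below all WT ratios, with a log2 difference of -0.70 (SD 0.0468 in WT and 0.495 in MED13cTg). Without MED13cTg replicate 2 the difference was -0.43. The exact permutation p was 0.1, the smallest possible, and 0.75 after adjustment over the 10 ratios. In EWAT the same ratio was 4.06, 3.87 and 3.52 in WT and 0.669 and 7.30 in MED13cTg replicates 1 and 2, on either side of the WT values, with replicate 3 inside the WT range.

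**Figure D4:**
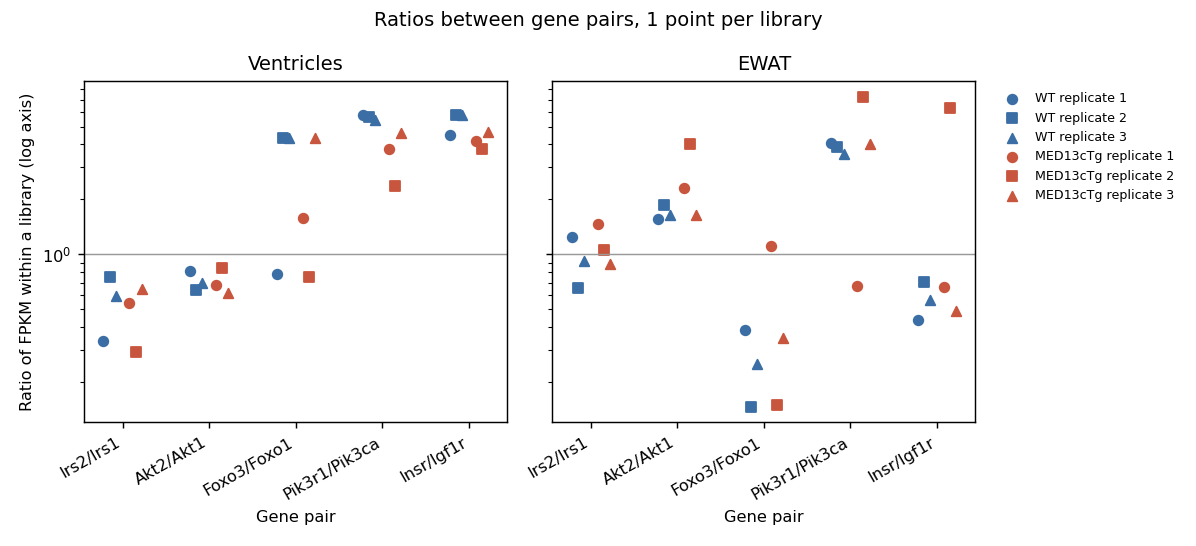
Ratio of FPKM between 5 gene pairs within each library (log axis, the line at 1 marking equal levels), in ventricles (left) and EWAT (right), with 1 point per library, blue for WT and red for MED13cTg. Pik3r1/Pik3ca in ventricles is the only ratio without overlap between genotypes, at 5.45 to 5.81 in WT and 2.37 to 4.62 in MED13cTg.

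Insr was also set against Igf1r, the related receptor for insulin-like growth factor. In ventricles the ratio was 4.49, 5.81 and 5.77 in WT and 4.18, 3.77 and 4.67 in MED13cTg, with only MED13cTg replicate 3 reaching into the WT range. The log2 difference was -0.34 with an exact permutation p of 0.2. In EWAT Igf1r was the more abundant receptor in 5 of 6 libraries, with ratios of 0.437, 0.702 and 0.562 in WT and 0.660, 6.33 and 0.491 in MED13cTg. The exception was MED13cTg replicate 2, where the adipocyte sum was 4.76 and the epididymis sum 0.00291 of the WT mean. Igf1r itself measured 27.7, 17.6 and 21.2 FPKM in WT EWAT against 5.76, 4.02 and 24.9 FPKM in MED13cTg. It was thus low in both libraries whose epididymis sum was low, and the part of that tissue in the ratio was not tested.

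Akt2 over Akt1 was below 1 in all 6 ventricle libraries, at 0.814, 0.634 and 0.694 in WT and 0.682, 0.845 and 0.613 in MED13cTg. It was above 1 in all 6 EWAT libraries, at 1.56, 1.87 and 1.65 in WT and 2.32, 4.01 and 1.64 in MED13cTg. Neither tissue separated the genotypes. Irs2 over Irs1 stayed below 1 in all ventricle libraries, from 0.291 to 0.751, and ran from 0.651 to 1.46 in EWAT. Foxo3 over Foxo1 in ventricles was 0.784, 4.34 and 4.34 in WT and 1.57, 0.748 and 4.32 in MED13cTg, the same high and low sets of libraries as for Foxo3 itself. In EWAT that ratio was 0.146 to 0.383 in WT and reached 1.11 in MED13cTg replicate 1.

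For the receptor and the adaptors, the genes with the most similar pattern were found by the root mean square difference over the 6 libraries of a tissue, on log2(FPKM + 1) centred on the WT mean. In ventricles Arid1b, a chromatin remodeller gene, was among the nearest to Insr, at 0.0258. Nearest to Irs1 were Fry at 0.0535 and Furin, a proprotein convertase gene whose substrates include the insulin receptor precursor, at 0.0636. Irs2 lay nearest to Klhl38 at 0.148 and Foxn3 at 0.171. Klhl38 measured 19.1, 47.0 and 40.6 FPKM in WT ventricles against 19.9, 14.3 and 38.3 FPKM in MED13cTg, so it too was lowest in MED13cTg replicate 2 and low in WT replicate 1.

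In EWAT, Insr lay nearest to Osmr, a cytokine receptor gene, at 0.0507 and Stat5b at 0.0529. Nearest to Irs1 were B230208H11Rik at 0.0630 and Lrp1, an endocytic receptor gene, at 0.115. Irs2 lay nearest to St6galnac5 at 0.110 and Etv3 at 0.157. Lrp1 measured 15.4, 20.4 and 18.0 FPKM in WT EWAT against 7.43, 62.3 and 18.9 FPKM in MED13cTg. As for Irs1, MED13cTg replicate 1 was the lowest and replicate 2 the highest of the 6 libraries. None of the nearest genes of one tissue recurred in the other.

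Beyond the 10 genes, 79 others of the pathway were listed by role. In ventricles 73 of 79 were tested and 0 passed the adjusted threshold, with adjusted p from 0.945 to 1.00. At an unadjusted limma p below 0.05 there were 3 of 73, beside 4.73% of all genes tested. The same 3 had all MED13cTg libraries below all WT libraries, beside 5.85% of all genes, while 0 had the reverse, beside 3.46%. These counts are no higher than those shares. The median log2 fold change over the 73 was -0.09. By list it was 0.19 for 4 receptors and ligands, -0.02 for 7 adaptors, -0.02 for 13 inhibitors and phosphatases, 0.02 for 9 genes of PI3K, PDK1 and mTORC2, -0.09 for 11 genes of the mTORC1 and GSK3 branches, -0.02 for 12 genes of GLUT4 traffic and -0.21 for 17 FoxO family members and targets. The FoxO list had 14 negative and 3 positive values, and the mTORC1 and GSK3 list 10 negative and 1 positive, beside 6707 negative among all 12589 genes tested. Of the 17 FoxO genes, 12 were highest in WT replicates 2 and 3 and MED13cTg replicate 3. The part of that split in these signs was not tested.

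The 3 genes below WT in ventricles had these values. Ptprf, the receptor phosphatase LAR that acts on the insulin receptor, measured 5.59, 5.67 and 4.13 FPKM in WT against 3.12, 3.29 and 3.64 FPKM in MED13cTg. Its log2 fold change was -0.49 (SE 0.137, limma adjusted p = 0.945). Grb14, an adaptor that inhibits the receptor kinase, measured 109.0, 102.2 and 105.9 FPKM in WT against 73.3, 97.2 and 71.6 FPKM in MED13cTg, with a log2 fold change of -0.40 (SE 0.146, limma adjusted p = 0.966). Both act against receptor signalling in textbook accounts, and neither passed the adjusted threshold. Gabarapl1, an autophagy gene and FoxO target, measured 115.7, 111.1 and 84.8 FPKM in WT against 79.2, 76.6 and 83.9 FPKM in MED13cTg, with a log2 fold change of -0.36 (SE 0.147, limma adjusted p = 0.966).

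**Figure D5:**
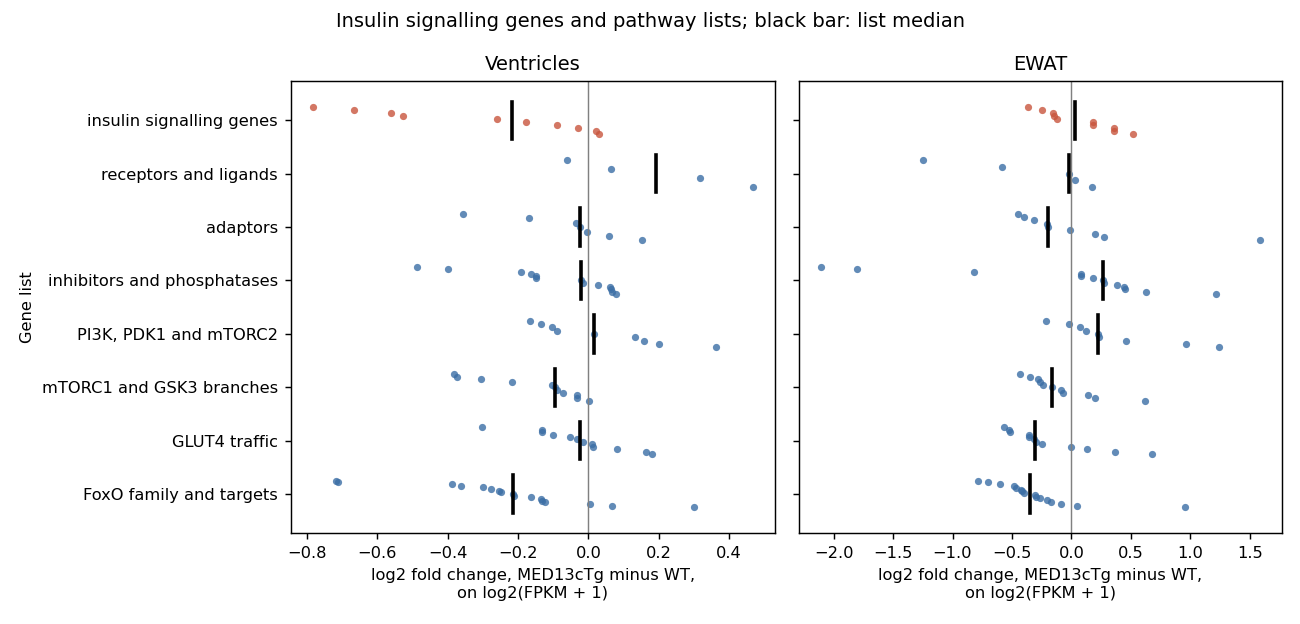
Log2 fold change of MED13cTg minus WT on log2(FPKM + 1) for each tested gene of the 10 insulin signalling genes (red) and 7 pathway lists (blue), in ventricles (left) and EWAT (right, with a wider axis), with a black bar at each list median. No gene shown passed the adjusted threshold, and the FoxO list has medians of -0.21 in ventricles and -0.35 in EWAT. The part of the differences between libraries in these medians was not tested.

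In EWAT 75 of the 79 genes were tested and 0 passed the adjusted threshold, with adjusted p from 0.738 to 0.996. An unadjusted limma p below 0.05 was found for 1 of 75, beside 1.25% of all genes tested. All MED13cTg libraries lay above WT for 7 of 75, beside 4.88% of all genes, and below WT for 5 of 75, beside 7.8%. The median log2 fold change was -0.16 over the 75. By list it was -0.02 for 5 receptors and ligands, -0.20 for 9 adaptors, 0.27 for 13 inhibitors and phosphatases, 0.22 for 9 genes of PI3K, PDK1 and mTORC2, -0.16 for 11 genes of the mTORC1 and GSK3 branches, -0.31 for 12 genes of GLUT4 traffic and -0.35 for 16 FoxO family members and targets. The FoxO list had 14 negative and 2 positive values, beside 7376 negative among all 14967 genes tested. The part of the unlike marker sums of MED13cTg replicates 1 and 2 in these medians and signs was not tested.

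The gene with the unadjusted p below 0.05 was Gadd45a, a growth arrest gene induced by FoxO factors. It measured 15.3, 13.8 and 14.9 FPKM in WT EWAT against 5.52, 7.89 and 11.9 FPKM in MED13cTg EWAT. All 3 MED13cTg libraries were below WT, replicates 1 and 2 most, with a log2 fold change of -0.79 (SE 0.300, limma adjusted p = 0.738). The muscle ubiquitin ligase gene Trim63 measured 1.40, 1.42 and 1.76 FPKM in WT against 1.12, 0.228 and 1.32 FPKM in MED13cTg. Rheb, the activator of mTORC1, measured 64.0, 62.2 and 61.4 FPKM in WT against 37.7, 56.2 and 54.7 FPKM in MED13cTg. Akt1s1, which encodes the AKT substrate PRAS40, measured 34.4 to 40.0 FPKM in WT against 28.4 to 33.0 FPKM in MED13cTg. Rab8a, a Rab protein controlled by TBC1D4, measured 41.0 to 47.0 FPKM in WT against 29.3 to 38.9 FPKM in MED13cTg. Log2 fold changes of these last 4 lay between -0.47 and -0.24, all with a limma adjusted p of 0.738.

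Of the genes with every MED13cTg library above WT, some were highest in MED13cTg replicate 1, the library with the testis germ cell markers. Cbl, a ubiquitin ligase and adaptor gene, measured 1.16, 0.565 and 0.874 FPKM in WT EWAT against 17.4, 2.61 and 1.59 FPKM in MED13cTg. Phlpp1, a phosphatase gene for AKT, measured 2.33, 1.92 and 2.07 FPKM in WT against 23.3, 3.68 and 2.33 FPKM in MED13cTg. Pik3cd, a catalytic subunit known from leukocytes, measured 1.99 to 2.24 FPKM in WT against 13.0, 3.99 and 2.25 FPKM in MED13cTg. Rictor, a subunit of mTORC2, was also highest in replicate 1, at 3.46 to 3.99 FPKM in WT against 5.45, 4.04 and 4.15 FPKM in MED13cTg. Others were highest in replicate 2, where the adipocyte sum was high. Phlpp2 measured 1.99 to 2.31 FPKM in WT against 2.52, 5.62 and 2.52 FPKM in MED13cTg, Lnpep, the aminopeptidase of GLUT4 vesicles, 1.29 to 1.61 FPKM in WT against 2.36, 5.70 and 1.74 FPKM in MED13cTg, and Sos1, the RAS exchange factor, 3.26 to 3.60 FPKM in WT against 3.93, 4.96 and 4.19 FPKM in MED13cTg. Log2 fold changes of these 7 genes ran from 0.22 for Rictor to 1.59 for Cbl, with limma adjusted p of 0.738 to 0.739, and the part of germ cell or adipocyte RNA in them was not tested.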

How the data were processed

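The authors aligned reads with TopHat (mm9 in the submitters' processing notes) and estimated FPKM with Cufflinks at default settings, and deposited 1 table of FPKM per tissue with a value per library. Loci of the insulin signalling genes are as the tables give them. The authors' mean FPKM per genotype, their fold columns and 1 unnamed column in the EWAT table were not used. Symbols of several genes are joined in 341 entries, none of them of the 10 genes. RNA per library is 1 µg by the labels and 10 ng in the paper's methods.

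Per tissue, genes averaging 1 FPKM or more over the 6 libraries entered limma 3.58.1 under R 4.3.3, fitted to log2(FPKM + 1) (lmFit, eBayes with trend, no covariate, Benjamini-Hochberg over all genes tested, threshold 0.05), after the steps were tested on simulated data. Those simulated libraries all had the WT spread, so they do not cover the wider spread of most insulin signalling genes among MED13cTg EWAT libraries. Ratios were tested with exact permutation in Python 3.11.15 with scipy 1.17.1. Relative depth is the commonest ratio to WT replicate 1 among values under 0.15 FPKM.

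The 10 genes, the pathway and marker lists and the alternatives were chosen with earlier results of these data known. Named were the 10 genes, Med13, any listed gene called, up to 2 genes per list and tissue with the largest log2 fold change among those without overlap, and the 2 nearest genes of Insr, Irs1 and Irs2. Values of Pdk4, Bnip3, Sesn3 and Fbxo32 were chosen after they were seen. Replicate numbers come from the labels. In EWAT, deviations from the group means correlated at 0.347, 0.304 and 0.144 between libraries of the same number, and at -0.42 to 0.168 between different numbers. The mature adipocyte sum rose from replicate 1 to 3 to 2 in both genotypes, and its part in these values was not tested. Whether the numbers mark pairs is thus not settled. The paired fit, with a replicate block, is given beside the EWAT count of 0 of 10 genes. Values of 1 pathway gene and of 1 nearest gene are not reported here.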

Additional observations from a re-analysis of the deposited data

How the results depend on the processing

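With FPKM alone, neither the counting error nor the depth behind low values such as those of Irs2 is known. Under every alternative, 0 of the 10 insulin signalling genes were called in either tissue, with limma adjusted p from 0.102 to 1.00 in ventricles and 0.441 to 1.00 in EWAT. The number of all genes called was 3 to 15 in ventricles against 7, and 0 to 19 in EWAT against 2. In ventricles that number was 3 at a filter of 5 FPKM, 15 with array weights and 4 without TG replicate 2. In EWAT it was 0 with no filter or array weights, 5 without WT replicate 1 or 3, 1 without TG replicate 2 or 3, and 19 without TG replicates 1 and 2. The median log2 fold change of the 10 genes in ventricles was -0.11 to -0.30 with libraries left out in turn, and -0.33 with array weights. In EWAT it was -0.59 to 0.49 with libraries left out in turn, -0.14 at 5 FPKM, 0.12 with median-of-ratios scaling and -0.10 with quantile normalization. With the filter at 5 FPKM, Irs2 in ventricles and Irs1, Irs2 and Foxo3 in EWAT were not tested and gave no value.

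Values of single genes moved, and most signs listed here turned, as follows, and the cause was not tested. In ventricles, Tbc1d4 was 0.020 under quantile normalization. With the library set as a covariate Pik3ca was 0.021, Akt2 -0.086, Foxo3 0.013 and Tbc1d4 0.090. Leaving out each library gave -0.021 to 0.062 for Akt1, -0.072 to 0.14 for Akt2 and -0.17 to 0.077 for Tbc1d4. Array weights in EWAT gave 0.26 for Insr, 0.43 for Pik3r1, 0.077 for Foxo1 and 0.24 for Tbc1d4. Without TG replicates 1 and 2, Insr was 0.010, Pik3r1 0.12 and Akt2 -0.16. With EWAT libraries left out in turn, the log2 fold change was -0.72 to 0.51 for Insr, -0.41 to 1.01 for Irs1, -0.25 to 1.07 for Irs2, -1.19 to 0.88 for Pik3r1, -0.064 to 0.36 for Pik3ca, -0.70 to 0.089 for Akt1, -0.50 to 0.69 for Akt2, -0.67 to 0.38 for Foxo1, 0.15 to 0.52 for Foxo3, which kept its sign, and -0.74 to 0.47 for Tbc1d4. Among ratios, the log2 difference was -0.51 to 0.16 for Irs2/Irs1, -0.14 to 0.10 for Akt2/Akt1 and -1.34 to 0.086 for Foxo3/Foxo1 in ventricles, where Pik3r1/Pik3ca kept its sign at -0.91 to -0.43, and -0.076 to 1.37 for Foxo3/Foxo1 and -1.22 to 0.50 for Pik3r1/Pik3ca in EWAT.

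With the replicate block, 4 genes in all were called in ventricles and 0 in EWAT, and 0 of the 10 insulin signalling genes in either. In ventricles deviations correlated at 0.0855, -0.192 and 0.140 between libraries of the same number, and at -0.271 to 0.188 between different numbers. Whether the numbers mark pairs is not settled there either.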
